A study of Mus musculus with 15 samples.

Results

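The comparison described here set the glandular epithelium (GE) of the wild-type mouse uterus against its luminal epithelium (LE), using the libraries titled Ctrl-GE and Ctrl-LE. These are 6 of the 15 libraries of a study on overactive Notch1 signalling in the uterine epithelium, 3 per epithelium, and they were chosen by those titles alone. All 6 carry the genotype label WT and the time label day4. The labels give no strain, age or method of separating glands from lumen, and do not say whether tissue of several mice was pooled or what day4 is counted from. The other groups used below, E-OEX-GE and E-OEX-LE (3 libraries each), carry the same cell type and time labels and a genotype label of Notch1 overexpression. The driver of that overexpression is not given in the sources used here. Nothing in the labels says that the 3 libraries of a group came from separate animals, so p-values measure only the spread between these libraries.

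The luminal epithelium lines the uterine cavity and is the surface that an embryo meets at implantation. It is continuous with tubular glands that run into the stroma and secrete proteins into the cavity, and in mice gland development and function depend on the forkhead transcription factor FOXA2. Leukaemia inhibitory factor, released by the glands, acts on the lumen through the receptor chains LIFR and gp130 and is needed for implantation.

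The wild-type tables list the same 6414 genes in all 6 libraries. The smallest absolute log2 ratio between the group means over these genes was 1.0, so the authors' list holds genes already selected for a difference in this same contrast. Just inside that limit lay Os9 and Hspb8 (log2 ratio of means 1.0001 for both), and Htt and Stn1 on the luminal side (-1.0008 for both). No gene below the limit was analysed here. Values are read counts divided by a factor per library, called scaled read counts below, and reads within the listed genes numbered 4573726 to 4797424 per LE library and 3818041 to 4420167 per GE library. These sums cover a selected list, so the full depth is unknown. Every difference below is GE minus LE on the log2(value + 1) scale, which understates changes of low genes. Differences carry a standard error (SE) and a Benjamini-Hochberg adjusted p from limma, and a gene with adjusted p under 0.05 is called. Because the genes were selected for a difference in these same libraries, the adjusted p controls no error rate. It only sets the difference of a listed gene beside the spread between libraries.

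The LE libraries varied more among themselves than the GE libraries, with a median SD of log2 values of 0.58 in LE and 0.30 in GE. LE replicates 1 and 2 stood farthest apart, at a chi-square per degree of freedom of 182 between their counts, against 16.6 to 46 between GE libraries. In all, 6223 of 6414 genes were called (97.0%), of which 3628 were higher in GE (56.6%) and 2595 higher in LE (40.5%). Without LE replicate 1 the count was 6085, and without LE replicate 2 it was 6108. Because the list was selected on this contrast, these shares describe the selection, and the counts of members below are to be read beside them. The group values did not overlap, with GE higher, for 3585 genes (55.9%), and with LE higher for 2566 genes (40.0%).

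**Figure D1:**
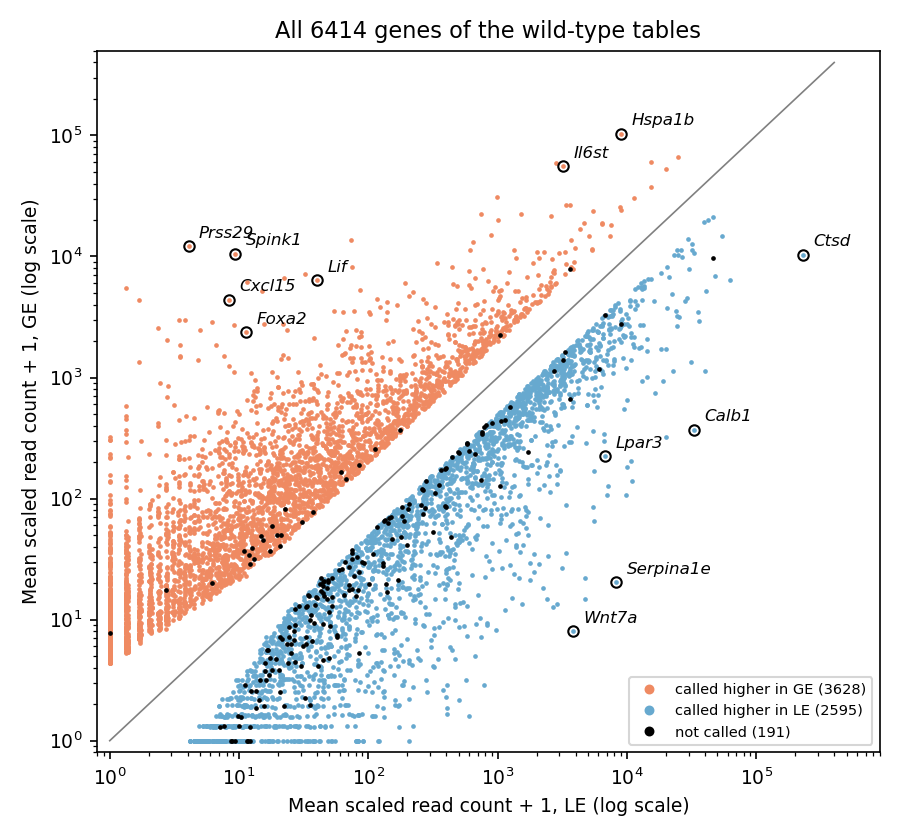
Mean scaled read count + 1 of each of the 6414 genes in LE (x axis, log scale) and GE (y axis, log scale), with n = 3 libraries per mean. The 3628 genes called higher in GE lie above the diagonal and the 2595 called higher in LE below it, and the empty band along the diagonal is the part that the selection left out. Open circles mark 12 named genes.

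The markers set for the 2 epithelia lay on the side that the labels give. All 12 listed gland markers were called higher in GE, beside 56.6% of all listed genes, with a median difference of 8.54 against 1.36 over all 6414 genes. Foxa2 (chr2:148042877-148046969, minus strand, GRCm38) had scaled read counts of 2227, 2584 and 2282 in the GE libraries and 14.5, 4.1 and 12.3 in the LE libraries. Cxcl15, a chemokine made by uterine glands, stood at 4776, 4045 and 4334 in GE and at 9.32, 7.17 and 5.59 in LE. Neither gene came near overlapping between the epithelia, and the differences were 7.86 (SE 0.44, adjusted p = 2.60e-05, limma) for Foxa2 and 9.06 (SE 0.26, adjusted p = 6.86e-06) for Cxcl15. Of the luminal markers, 8 of 10 were listed and 7 were called higher in LE, beside 40.5% of all listed genes, with a median of -5.80. Wnt7a, the Wnt ligand of the luminal surface, had 7.79, 3.79 and 9.52 in GE against 2958, 5006 and 3558 in LE. Lpar3, the lysophosphatidic acid receptor that takes part in embryo spacing, had 273, 195 and 202 in GE against 6313, 6184 and 7940 in LE. Their differences were -8.94 (SE 0.37, adjusted p = 1.70e-05) and -4.93 (SE 0.21, adjusted p = 1.70e-05).

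**Figure D2:**
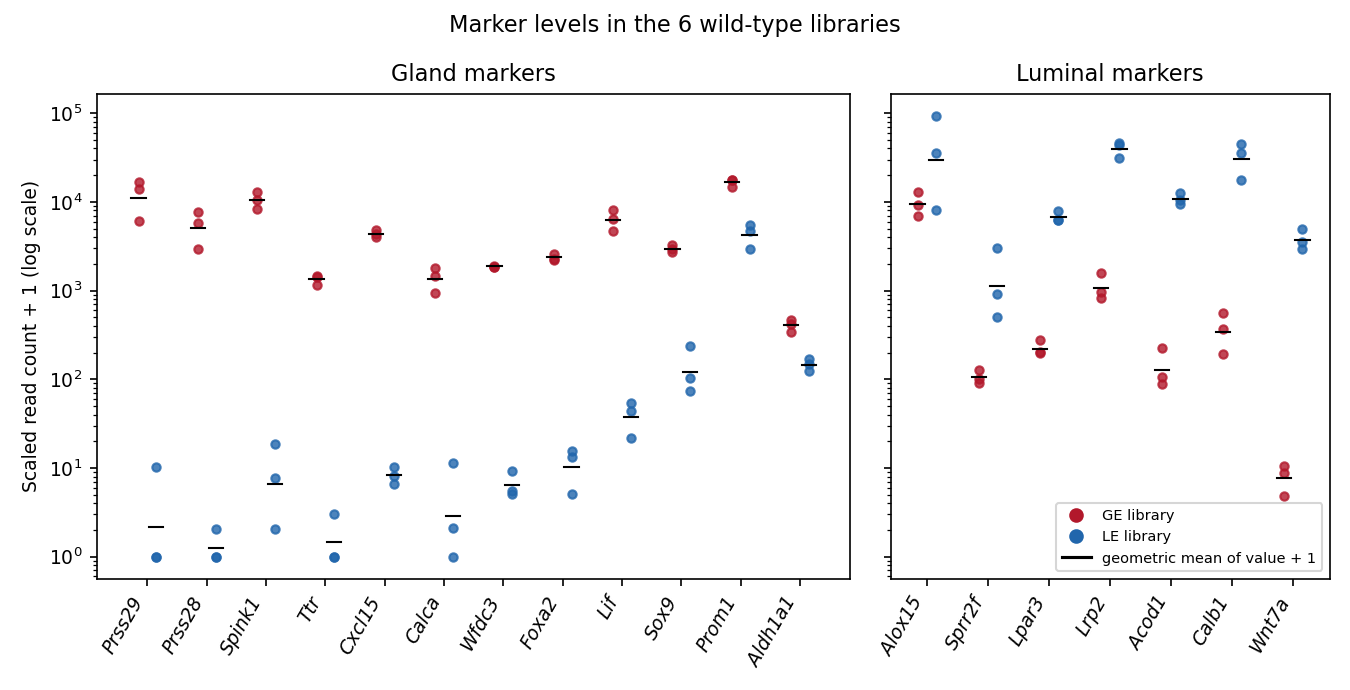
Scaled read count + 1 (y axis, log scale) of the 12 listed gland markers and 7 of the 8 listed luminal markers in each of the 3 GE and 3 LE libraries, with a bar at the geometric mean of value + 1. GE and LE points are apart for every gene shown except Alox15, whose LE libraries run from 8068 to 94060.

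The gland markers with the largest differences encode secreted proteins. Prss29 and Prss28 are implantation serine proteinases, adjacent on chromosome 17 (Prss28 at chr17:25308646-25311876 and Prss29 at chr17:25318654-25322684, both plus strand, GRCm38). Prss29 had scaled read counts of 13840, 6029 and 16582 in GE and of 0, 9.22 and 0 in LE. Prss28 had 5760, 2958 and 7774 in GE and 0, 1.02 and 0 in LE. In both, GE replicate 2 was the lowest GE library by a clear margin, while LE replicate 2 was the only LE library with any read. The difference was 12.33 (SE 0.92, adjusted p = 5.80e-05) for Prss29. For Prss28 all LE libraries held 3 reads or fewer, the detection floor used here, and GE was at least 1730-fold higher. Their longest open reading frames were 68.1% identical over the aligned bases.

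Spink1, a secreted trypsin inhibitor, had 10612, 8261 and 12770 in GE against 1.04, 17.4 and 6.71 in LE (difference 10.62, SE 0.73, adjusted p = 4.25e-05). Per kilobase of exon it ranked sixth among the listed genes in GE, at 14469, and was at 11.5 in LE. Ttr, which encodes the thyroxine and retinol carrier transthyretin, had 1463, 1435 and 1156 in GE and 0, 2.05 and 0 in LE, at least 425-fold higher in GE. Calca, the calcitonin gene, differed by 8.87 (SE 0.84, adjusted p = 0.000131), and Wfdc3, a small protein with a whey acidic protein domain, by 8.20 (SE 0.31, adjusted p = 1.49e-05). Sox9, a transcription factor of gland cells, stood at 2975 ± 304 (SD, n = 3) in GE and 136 ± 85.8 in LE, a difference of 4.62 (SE 0.41, adjusted p = 0.000102). The last 2 members were called with far smaller differences. Prom1, a membrane glycoprotein, was at 16744 ± 1621 in GE and 4350 ± 1284 in LE (1.99, SE 0.24, adjusted p = 0.000339), and the retinaldehyde dehydrogenase Aldh1a1 at 407 ± 65.1 and 146 ± 23.5 (1.47, SE 0.24, adjusted p = 0.00116).

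Among the luminal markers, Calb1, the calcium-binding protein calbindin, had 552, 190 and 368 in GE and 44990, 17811 and 35781 in LE (-6.50, SE 0.47, adjusted p = 5.03e-05). Acod1, the enzyme that makes itaconate, stood at 139 ± 73.4 in GE and 10883 ± 1651 in LE, and the endocytic receptor Lrp2 at 1125 ± 409 and 40402 ± 8376. Both were called, at -6.39 and -5.20. Sprr2f, an oestrogen-responsive envelope protein, was called with a wide LE spread (922, 3012 and 504 against 127, 99.5 and 89.1 in GE; -3.41, SE 0.60, adjusted p = 0.00149). The lipoxygenase gene Alox15 was not called: LE held 8068, 94060 and 35588 and GE 12979, 6929 and 9339 (-1.67, SE 0.80, adjusted p = 0.0744). LE replicate 1 lay within the GE range, and without it Alox15 was called at -2.62 (adjusted p = 0.00116).

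Beyond the markers, the 12 called genes with the largest differences in each direction, among those with a mean of at least 100 over the 6 libraries and no overlap, held further secreted and surface proteins. On the gland side these included Krt83, a hair-type keratin, at 5195, 3081 and 4764 in GE and 0, 2.05 and 0 in LE (at least 1368-fold higher). Hp, the haemoglobin-binding protein haptoglobin, was at least 642-fold higher in GE (2168, 1633 and 2316 against 0, 3.07 and 2.24). Ryr3, a calcium release channel of the endoplasmic reticulum, had 6151, 5689 and 6585 in GE and 3.11, 18.4 and 10.1 in LE (9.32, SE 0.53, adjusted p = 2.67e-05). The transmembrane protease Tmprss11g (9.58), Tmem132e (9.44) and the predicted genes Gm32592 (10.53) and Gm7298 (10) completed this side together with Cyp3a59 and the gland markers already described. A group of 4 neighbouring cytochrome P450 genes on chromosome 5 moved together. Cyp3a59 had 2560, 2838 and 3538 in GE and 0, 6.14 and 1.12 in LE (10.22, SE 0.67, adjusted p = 3.96e-05). Cyp3a57 differed by 9.04, Cyp3a25 was at least 151-fold and Cyp3a16 at least 68-fold higher in GE. The longest reading frames of Cyp3a25 and Cyp3a57 were 97.5% and 94.2% identical to that of Cyp3a59, so how reads were divided among these 3 is uncertain, whereas Cyp3a16 shared 75.5%.

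On the luminal side the largest difference belonged to Serpina1e, of the alpha-1-antitrypsin family of protease inhibitors. It had 40.9, 6.64 and 10.4 in GE and 8446, 8203 and 8011 in LE (-9.06, SE 0.58, adjusted p = 3.64e-05). Its reading frame is 96.3% identical to that of Serpina1b, so the split between them is uncertain, and Serpina1b itself was called at -4.01. Transporters on this side were the sodium-coupled inositol transporter Slc5a11 (41.8, 2.84 and 19 in GE against 5210, 3271 and 5724 in LE), the citrate transporter Slc13a5 (-7.64) and Slc51a, a subunit of the organic solute transporter (at least 216-fold higher in LE). Slc51a was uneven among the LE libraries, at 1498, 83 and 227. Gcnt3, a glycosyltransferase that builds branched mucin-type glycans, differed by -8.09, the homeobox gene Barx2 by -8.00 and Cwh43 by -7.88. Klk11, a kallikrein protease, had no read in any GE library and 209, 150 and 258 in LE, at least 73.8-fold higher. Grid2ip (-7.59) and the long noncoding RNA Sox2ot (-7.53) were also on this side.

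Levels between genes can be set side by side per kilobase of exon. By this measure, chosen after the values were seen, the highest listed gene in LE was Ctsd, the lysosomal protease cathepsin D, at 98209 per kilobase against 4412 in GE. Its scaled read counts were 193742, 247764 and 251166 in LE and 12286, 9626 and 9204 in GE (-4.48, adjusted p = 1.49e-05). The glutathione transferases Gsto1 (30744 per kilobase in LE), Gstm1 (24595) and Gstm2 (21108) and the actin-binding Tmsb4x (21398) were also among the 8 highest in LE, and all 4 were called higher there. In GE the highest were the heat shock gene Hspa1b (36818 per kilobase), the interferon-induced membrane gene Ifitm3 (35804) and, just after a mitochondrial rRNA gene, the zinc importer Slc39a4 (21392 against 7994 in LE).

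Listed markers of other cell types differed sharply between the 2 preparations. Of 20 stromal markers 15 were listed, and all 15 were higher in GE (median 4.92), beside 56.6% of all listed genes. All 11 listed of 13 smooth muscle and pericyte markers (4.68) and all 13 endothelial markers (4.77) were also higher in GE. The summed stromal level was 72894, 143270 and 51469 in GE and 635, 12299 and 3606 in LE. For smooth muscle and pericytes the sums were 5542, 8325 and 9113 in GE and 208, 582 and 156 in LE, and for endothelium 5613, 4700 and 7685 against 279, 700 and 362. The groups did not overlap in any of these sums. The sums hold only listed members, which were selected for a difference between these same libraries, so this separation was largely set by the selection. Col1a1, the main fibrillar collagen chain, had 18185, 37573 and 11496 in GE and 53.9, 1693 and 475 in LE (5.81, SE 1.14, adjusted p = 0.00236). Myh11, smooth muscle myosin, differed by 7.33 and Pecam1, an endothelial adhesion molecule, by 4.77. In libraries made from many cells, fewer cells of a type and less RNA per cell cannot be told apart.

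The listed epithelial markers shared by both compartments ran the other way. Of 14 such markers 7 were listed, and all 7 were higher in LE (median -1.48), beside 40.5% of all listed genes. Shared markers that were not listed were not analysed, so this does not describe the class. Krt19, a simple-epithelial keratin, differed by -3.36, the adhesion molecule Epcam by -1.07 and E-cadherin, Cdh1, by -1.32 (7356, 8448 and 8722 in GE against 20699, 21139 and 19334 in LE). Epcam was not called after quantile normalization. Among 18 leukocyte markers 9 were listed, 7 higher in GE, among them lysozyme Lyz2 (2.53) and the class II antigen genes, and 2 higher in LE, Laptm5 (-2.29) and Cd68 (-1.98). All 3 listed mesothelial markers, Upk3b, Msln and Lrrn4, were higher in LE. Their sums were 110, 3274 and 1023 in LE and 1, 9 and 4 in GE, and LE replicate 2 held the most. The ciliary genes split, with the axonemal motor Dnah5 higher in LE (-5.22) and the transcription factor Foxj1 higher in GE (2.03), though Foxj1 was not called with DESeq2 or after quantile normalization.

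**Figure D3:**
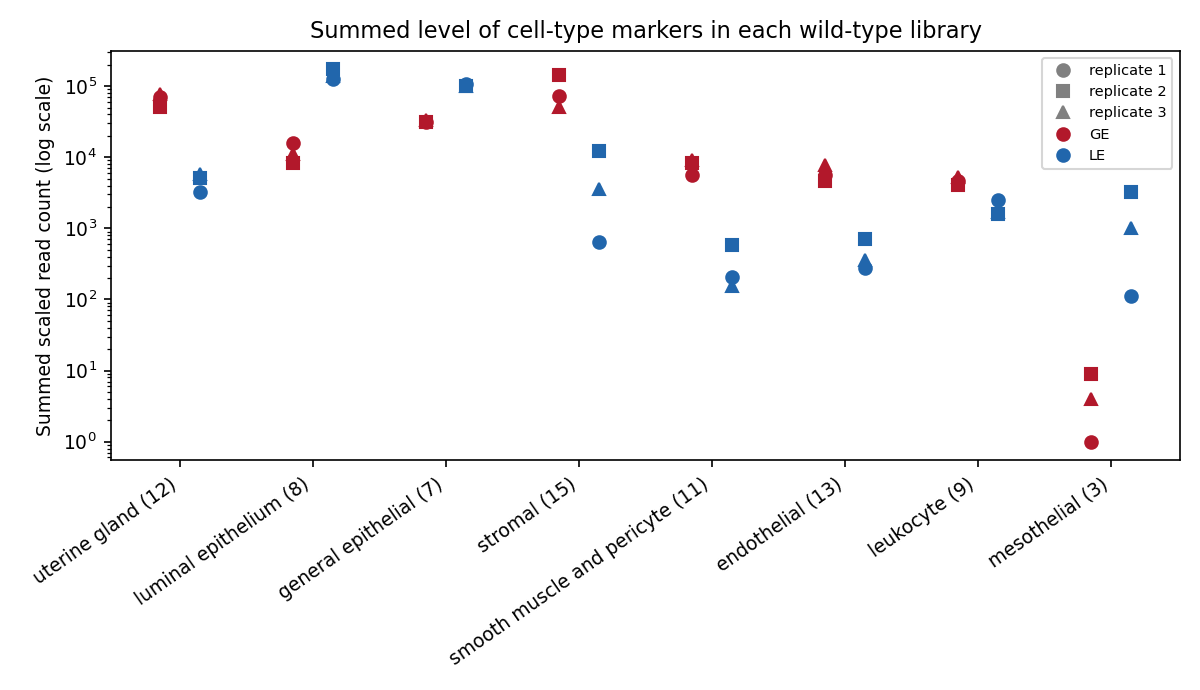
Summed scaled read count (y axis, log scale) of the listed members of 8 marker lists in each wild-type library, with the number of members in parentheses. Stromal sums of the GE libraries (51469 to 143270) lie above all LE sums (635 to 12299), while the mesothelial sums of LE (110 to 3274) lie above those of GE (1 to 9). Only members selected for a difference between these libraries are summed, which largely sets the separation.

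Most listed matrix genes were higher in GE. In the collagen family 28 of 31 listed members were, and in the basement membrane and matrix list 16 of 20, among them the type IV collagen Col4a1 (5.43). The share over all listed genes was 56.6%. The collagen genes Col1a1, Col1a2, Col3a1, Col5a1, Col6a1 and Col6a2 are also stromal markers, so the collagen and stromal counts share them. Laminin chains were called in both directions, with Lama2 (5.31), Lama4 (5.03) and Lamb1 (1.71) higher in GE and others among the 4 that ran the other way. Lamb3 had 8.76, 10.4 and 13.8 in GE and 1913, 748 and 745 in LE (-6.43, SE 0.43, adjusted p = 4.02e-05). Lama3 was at 168 ± 35.5 in GE and 5584 ± 2824 in LE (-4.93), and Lamc1 at -1.06, the last not called after quantile normalization or without LE replicate 3 or GE replicate 1 or 3. Laminins with the chains encoded by Lama3 and Lamb3 anchor epithelia to their basement membrane. The part of the stromal markers in the collagen result was not tested.

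Wnt pathway members were called in both directions, with 16 of 27 listed members higher in GE and 9 higher in LE. This split was near that of all listed genes (56.6% and 40.5%). The ligands were split: Wnt7a, Wnt7b and Wnt11 were higher in LE and Wnt4, Wnt5b and Wnt6 in GE (Wnt6 not with DESeq2 or after quantile normalization). Wnt11 had 259, 129 and 152 in GE and 7872, 10924 and 11111 in LE (-5.83, SE 0.29, adjusted p = 2.13e-05), and Wnt7b was at 6.38 ± 5.03 and 576 ± 260 (-6.57). Wnt4 stood at 511, 753 and 883 in GE and 196, 100 and 35.8 in LE (2.95, SE 0.58, adjusted p = 0.00243). Porcn, the acyltransferase that Wnt ligands need for secretion, was higher in LE (-2.43). Receptors also differed, with Fzd7 (3.58), Fzd4 (2.0), Fzd1 (1.77) and the co-receptor Lrp5 (1.62) higher in GE and Fzd5 (-1.45), Fzd6 (-1.36), Fzd10 (-1.76) and Fzd3 (-1.08) higher in LE. Genes known to respond to canonical Wnt signalling were on both sides. Axin2 had 1700, 1751 and 2729 in GE and 273, 290 and 211 in LE (2.97, SE 0.25, adjusted p = 8.79e-05), Sp5 differed by 6.68 and Lef1 by 3.10. Notum, a Wnt deacylase and also a target, ran the other way (-3.14), and Lgr5 was not called (-1.62, adjusted p = 0.102), with LE values of 110, 1673 and 438. Without LE replicate 1, Lgr5 was called at -2.61 (adjusted p = 0.00276). The member with the largest positive difference was Dkk3, a secreted protein of the Dickkopf family, at 12586, 11907 and 16340 in GE and 7.25, 84 and 124 in LE (8.25, SE 0.93, adjusted p = 0.000245). The secreted antagonists Sfrp4 (6.67) and Sfrp2 (4.0) were higher in GE, as were the stromal sums. The part of stromal cells in these differences was not tested.

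Of the Lif pathway, 7 of 16 members were listed, 5 higher in GE and 2 in LE. Lif had scaled read counts of 6391, 4698 and 8110 in GE and 20.7, 53.3 and 42.5 in LE (7.39, SE 0.38, adjusted p = 2.13e-05). Il6st, which encodes gp130, had 49888, 52224 and 64131 in GE and 2428, 3981 and 3208 in LE (4.13, SE 0.21, adjusted p = 2.13e-05). Lifr, the ligand-specific chain, was higher in LE, with 551, 386 and 606 in GE and 1618, 3869 and 2717 in LE (-2.35, SE 0.34, adjusted p = 0.000675). The ligand and the shared chain were thus higher in one epithelium and the ligand-specific chain in the other. Msx2, a homeobox gene, was higher in GE (3.97) and Socs1, a feedback inhibitor of cytokine signalling, higher in LE (-1.23), but the call for Socs1 was lost when any of 4 libraries was left out.

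Steroid receptor genes and their uterine targets numbered 17 listed of 25, 8 higher in GE and 7 in LE. Esr1, oestrogen receptor alpha, had 12500, 13424 and 15081 in GE and 4010, 2748 and 4253 in LE (1.92, SE 0.20, adjusted p = 0.000194). Pgr, the progesterone receptor, had 1503, 1777 and 1353 in GE and 4694, 1828 and 2971 in LE (-0.94, SE 0.33, adjusted p = 0.0275), and its call was lost without LE replicate 3, without any one GE replicate and after quantile normalization. Among the oestrogen-responsive genes, Greb1 (4.18), Padi1 (5.72), Padi2 (3.68) and Igf1 (4.32) were higher in GE. Igf1 is also a product of the stroma, and its GE values of 2617, 2952 and 2010 stood beside the stromal sums given above. The related peptidylarginine deiminase gene Padi4 was higher in LE (49.7 ± 4.03 in GE, 1386 ± 212 in LE; -4.77). The secreted proteins C3 (LE 737, 13647 and 3870; adjusted p = 0.129) and Ltf (LE 2419, 417 and 571; adjusted p = 0.18) were not called. LE replicate 1 was the lowest of its group for C3 and the highest for Ltf. Without it C3 was called at -2.85 (adjusted p = 0.00649), and without LE replicate 2 Ltf was called at -1.40 (adjusted p = 0.0497).

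Prostaglandin genes were called in both directions, 7 in each, among 16 listed of 24 members. The cyclooxygenases were higher in LE: Ptgs1 had 322, 251 and 244 in GE and 3513, 2077 and 2352 in LE (-3.25, SE 0.25, adjusted p = 6.40e-05), and Ptgs2 had 52.6, 82.5 and 40.7 in GE and 297, 1480 and 1938 in LE (-4.06, SE 0.69, adjusted p = 0.00129). The phospholipase that frees arachidonic acid, Pla2g4a, was also higher in LE (-1.48), as were the PGE2 receptor genes Ptger2 (25.5 ± 11.9 in GE, 3115 ± 560 in LE; -6.97) and Ptger4 (-1.61). Hpgd, the enzyme that inactivates prostaglandins, was higher in GE, with 2052, 1862 and 1908 against 12.4, 282 and 131 (4.61, SE 1.0, adjusted p = 0.00355). Slco2a1, the prostaglandin uptake transporter, had 1529, 1082 and 1735 in GE and 139, 73.7 and 49.2 in LE (4.14, SE 0.40, adjusted p = 0.000141). The synthase Hpgds (4.64) was likewise higher in GE.

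Genes for water and ion transport, which set the volume of uterine fluid, were listed for 20 of 32 members. Of these, 9 were called higher in GE and 11 in LE, beside 56.6% and 40.5% of all listed genes. The group values did not overlap for 5 of the 9 and for all 11. The water channels Aqp5 and Aqp8 were higher in GE, and Aqp11 (-1.34) and Aqp4 (at least 6.72-fold) in LE. Aqp5 had 3142, 1958 and 3234 in GE and 30, 9.22 and 4.47 in LE (7.82, SE 0.61, adjusted p = 6.52e-05), and Aqp8 was at least 216-fold higher. The carbonic anhydrase Car12 was at 21449 ± 7383 in GE and 2599 ± 2372 in LE (3.49), and the proton pump Atp12a differed by 5.85. The chloride channel gene Cftr had 3.89, 2.84 and 2.6 in GE and 350, 258 and 331 in LE (-6.26, SE 0.35, adjusted p = 2.67e-05). Further ion transport genes on the luminal side were the sodium pump regulator Fxyd4 (318 ± 185 in GE, 20142 ± 5365 in LE; -6.09), the sodium-proton exchanger Slc9a2 (at least 74.2-fold higher), the sodium channel subunit Scnn1a (-2.51), the pump subunit Atp1b1 (-2.38) and the chloride importer Slc12a2 (-2.18). In the solute carrier family 136 members were listed, 78 higher in GE and 55 in LE, near the shares of all listed genes (56.6% and 40.5%). With DESeq2 59 of the 78 were called.

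Serine proteases and their inhibitors were listed for 26 of 34 members, 11 higher in GE and 14 in LE. Beside the gland genes above, Prss12 (5.50) and the inhibitor Serpina3n (6.84) were higher in GE. In LE the adjacent kallikrein genes Klk10 (at least 29.7-fold higher) and Klk11, the membrane protease St14 (-1.74), Prss22 (-5.64) and Prss23 (-3.66) were higher, as was the secreted inhibitor Wfdc2, at 21688, 25991 and 20820 against 1250, 1085 and 1069 in GE (-4.33, SE 0.16, adjusted p = 1.49e-05). Mucosal defence genes were listed for 17 of 29 members, 11 higher in GE and 2 in LE, beside 56.6% and 40.5% of all listed genes. Olfm4, a secreted glycoprotein, had 332, 350 and 225 in GE and no read in LE, at least 95.1-fold higher. The chemokine Ccl28 (3.97) and the lysozymes Lyz1 (3.27) and Lyz2 (2.53) were also higher in GE. The reading frames of Lyz1 and Lyz2 were 95.1% identical over the aligned bases, so their reads may have been divided unevenly, and Lyz2 is a macrophage marker too. The chemokine Cxcl17 was higher in LE (-3.23).

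All 18 listed interferon-stimulated genes, of 24 in the list, were higher in LE, with a median of -1.82, against 40.5% of all listed genes. These genes respond to interferons and restrict viral replication, and the transcription factors STAT2 and IRF9 act on an element in their promoters, the interferon-stimulated response element. Irf7, a regulator of the response, had 233, 217 and 384 in GE and 2638, 1910 and 2716 in LE (-3.15, SE 0.28, adjusted p = 0.0001). Ddx58, the cytoplasmic RNA sensor RIG-I, had 1499, 1319 and 1505 in GE and 7560, 9578 and 10618 in LE (-2.67, SE 0.18, adjusted p = 3.96e-05). Ifit1, which binds foreign RNA caps, stood at 40.9, 40.8 and 66.6 in GE and 644, 386 and 1048 in LE (-3.70, SE 0.41, adjusted p = 0.000234). For none of these 3 genes did a GE library reach an LE library. Isg15, a ubiquitin-like protein, was at 56.6 ± 18.4 and 397 ± 62.6 (-2.83), Oas2 at -3.53, Xaf1 at -3.51, Mx1 at -3.34, Stat2 at -1.69 and Irf9 at -1.25. The membrane genes Ifitm3 (1.47) and Ifitm2 (1.42), outside the list, were higher in GE and were chosen after their values were seen.

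The element, searched as GAAA, any 2 bases and again GAAA on both strands from 250 bases before to 50 after the gene start in RefSeq (GRCm38.p6), was present for 9 of the 14 interferon-stimulated genes with a promoter in the table (64.3%). The share was 3.99% over all 27025 genes of that table, 2.80% for genes called higher in GE and 5.95% for genes called higher in LE. The 250 bases before the starts of Isg15 and Ifit1 are shown, 5' to 3' on the gene's strand, because these members had large differences and several matches. Capitals mark the matched bases on either strand, which overlap one another in Isg15. The windows are chr4:156200819-156201068 (minus strand) for Isg15 and chr19:34640639-34640888 (plus strand) for Ifit1.
Isg15: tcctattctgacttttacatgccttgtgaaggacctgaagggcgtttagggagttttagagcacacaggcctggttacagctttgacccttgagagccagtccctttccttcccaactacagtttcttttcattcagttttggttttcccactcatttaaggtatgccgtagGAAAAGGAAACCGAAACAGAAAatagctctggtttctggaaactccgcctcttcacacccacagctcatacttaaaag
Ifit1: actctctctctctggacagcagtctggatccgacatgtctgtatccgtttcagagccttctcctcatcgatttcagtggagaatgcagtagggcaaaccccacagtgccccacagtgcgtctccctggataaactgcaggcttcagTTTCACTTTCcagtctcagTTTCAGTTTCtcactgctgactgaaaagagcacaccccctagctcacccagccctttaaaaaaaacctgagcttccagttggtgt
The Isg15 matches begin 78, 72 and 66 bases before the start, and those of Ifit1 104 and 85 bases before it. A match is a description of the letters and shows no binding.

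The listed genes of protein folding and export in the endoplasmic reticulum were higher in GE. Of 30 members 14 were listed and all 14 were called in that direction, beside 56.6% of all listed genes, with a median of 1.91. The median of 1.36 over all listed genes covers both directions, so it does not show whether 1.91 is large for a gene higher in GE. Members that were not listed were not analysed. Xbp1, the transcription factor of the unfolded protein response in secretory cells, had 9581, 9575 and 10150 in GE and 1017, 3983 and 1308 in LE (2.48, SE 0.47, adjusted p = 0.00198). Hspa5, the chaperone BiP, had 16838, 17356 and 22184 in GE and 3245, 5886 and 4869 in LE (2.04, SE 0.24, adjusted p = 0.00031). Agr2, a disulfide isomerase of mucus-producing cells, differed by 4.17, Sdf2l1 by 3.17, the degradation factor Herpud1 by 2.77 and Pdia6 by 1.79. The translocon subunits Sec61a1 (1.11) and Sec61b (1.03) were at the low end, and neither was called with DESeq2.

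**Figure D4:**
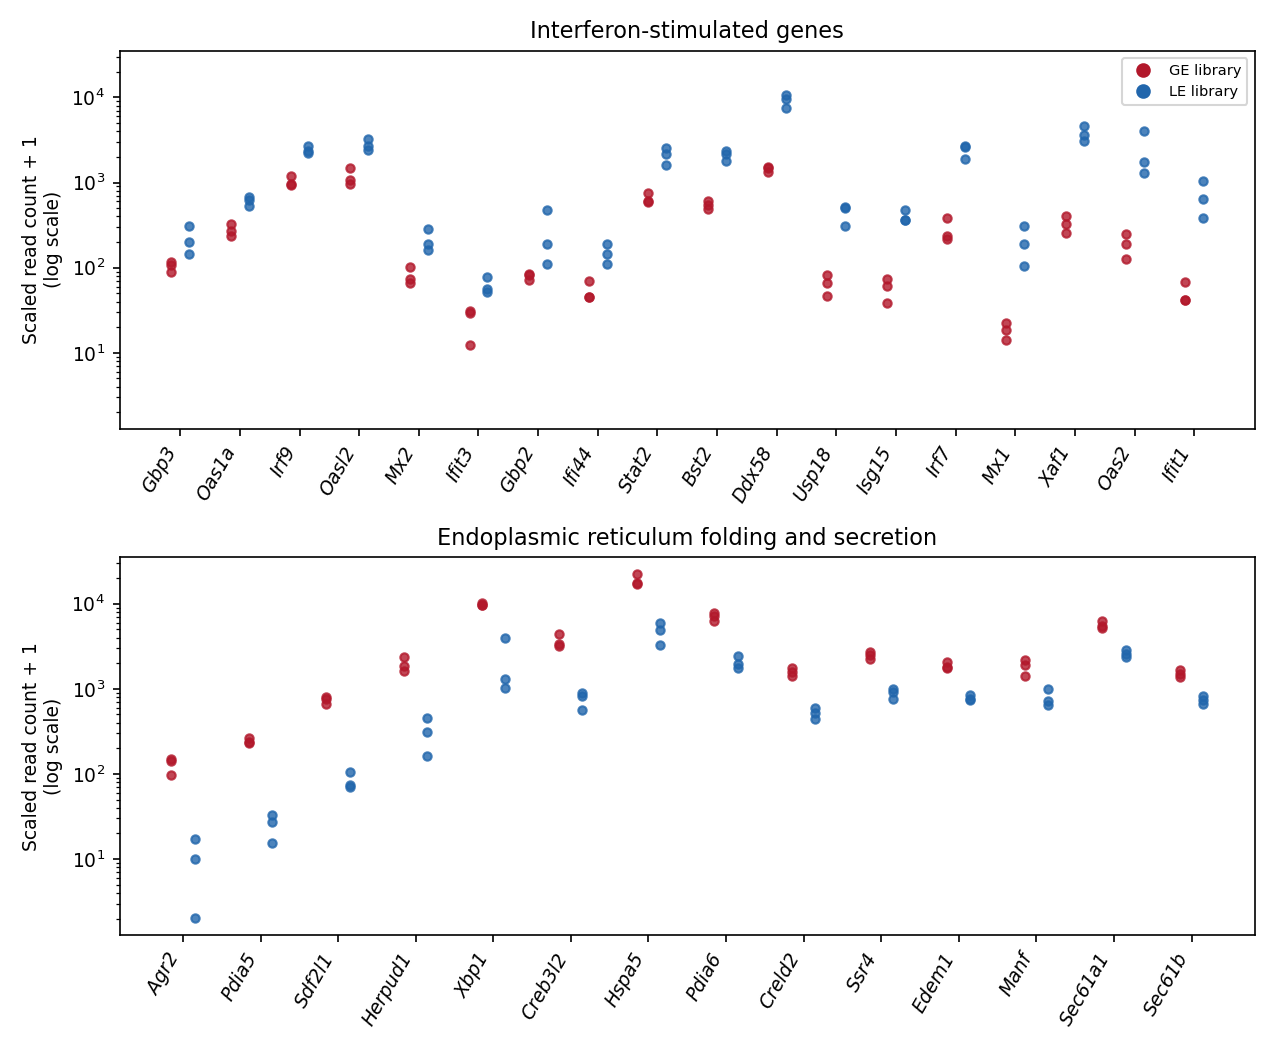
Scaled read count + 1 (y axis, log scale) of the 18 listed interferon-stimulated genes (top) and the 14 listed endoplasmic reticulum genes (bottom) in each GE and LE library. LE points lie above GE points for all 18 genes of the upper panel and GE points above LE points for all 14 genes of the lower panel.

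The endoplasmic reticulum stress element, searched as CCAAT, any 9 bases and CCACG on both strands of the same windows, was found for 3 of 12 members with a promoter in the table (25.0%) and for 0.137% of all 27025 genes. It was found for 0.388% of genes called higher in GE and 0.064% of genes called higher in LE. The 3 members were Hspa5, Pdia6 and Creld2, and the 250 bases before their starts are shown with the match in capitals. The windows are chr2:34771840-34772089 for Hspa5, chr12:17266339-17266588 for Pdia6 and chr15:88819396-88819645 for Creld2, all on the plus strand.
Hspa5: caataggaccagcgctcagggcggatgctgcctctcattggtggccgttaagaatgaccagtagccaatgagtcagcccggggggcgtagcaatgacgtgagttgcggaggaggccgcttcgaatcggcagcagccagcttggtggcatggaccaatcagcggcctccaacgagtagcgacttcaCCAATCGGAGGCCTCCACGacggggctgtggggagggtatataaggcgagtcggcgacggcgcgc
Pdia6: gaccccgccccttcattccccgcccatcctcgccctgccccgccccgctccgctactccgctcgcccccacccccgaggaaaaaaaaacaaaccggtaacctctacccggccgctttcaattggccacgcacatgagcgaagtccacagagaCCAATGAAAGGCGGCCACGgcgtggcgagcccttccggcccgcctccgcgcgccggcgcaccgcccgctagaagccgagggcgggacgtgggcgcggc
Creld2: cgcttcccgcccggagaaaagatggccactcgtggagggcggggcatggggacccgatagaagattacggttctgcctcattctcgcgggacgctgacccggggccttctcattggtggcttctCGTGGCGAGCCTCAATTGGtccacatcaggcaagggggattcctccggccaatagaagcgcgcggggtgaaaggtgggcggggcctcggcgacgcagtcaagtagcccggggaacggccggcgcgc
The matches begin 65, 98 and 126 bases before the start, and that of Creld2 is on the opposite strand. The forkhead core TGTTTAC was in none of the windows of the 9 gland markers with a promoter in the table, against 4.05% of all genes. No match says only that these letters are not in these windows.

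Heat shock and immediate early genes, which respond quickly to stress and growth signals, were listed for 10 of 25 members. Of these, 9 were called higher in GE, beside 56.6% of all listed genes. Hspa1b had 104090, 110515 and 94999 in GE and 2985, 11772 and 12195 in LE (3.77, SE 0.51, adjusted p = 0.000491), and Hspa1a differed by 4.92. The reading frames of these neighbours on chromosome 17 were 99.6% identical, so they are best read together. Hsph1 differed by 3.26, Atf3 by 2.61, Jun by 1.59 and Egr1 by 1.84, while Nr4a1 was not called (1.37, adjusted p = 0.0548). Egr1 and Atf3 lost their calls without any one GE replicate, with DESeq2 and with edgeR after TMM scaling, and Egr1 also without LE replicate 3. Summed over the list, GE held 231340, 253644 and 233059 and LE 16312, 51353 and 45758, with Hspa1a and Hspa1b the largest contributors in GE. With DESeq2 6 of the 9 were called. The part of this difference in other results was not tested. A further pair of groups of transcripts were higher in GE, all 13 listed mitochondrial rRNA and tRNA genes (median 3.26, 9 of them called with DESeq2) and all 20 listed replication histone genes (median 2.43, with Hist1h1c at 1.01 not called with DESeq2). Both counts stand beside the same 56.6% of all listed genes.

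Of the EGF and FGF family 16 of 29 members were listed, 7 higher in GE and 9 in LE. In LE the ligands Fgf9 (at least 57.4-fold higher), Fgf18 (-5.74), Fgf1 (-4.99), Nrg1 (-4.15) and Ereg (at least 7.74-fold higher) and the receptors Fgfr2, Egfr (-2.09), Erbb2 (-1.55) and Erbb3 (-1.05) were higher. Fgfr2 had 2858, 2719 and 2594 in GE and 14252, 11500 and 12190 in LE (-2.21, SE 0.15, adjusted p = 4.10e-05). Fgf10, Fgf7 and Hgf, ligands made by stroma, and Egf (1.43), Fgfr1 and Fgfr3 (2.88) were higher in GE, but Fgf7 and Egf were not called with DESeq2 or after quantile normalization, Egf also not without GE replicate 1, nor Fgfr1 without GE replicate 2. All 7 listed hedgehog genes were higher in GE (median 3.26), beside 56.6% of all listed genes. They included the pathway targets Gli1, at 465, 907 and 350 against 16.6, 160 and 59.2 in LE (3.26, SE 0.78, adjusted p = 0.00552), and Hhip (at least 22.6-fold higher). Gli1 was highest in GE replicate 2 and LE replicate 2, the libraries with the highest stromal sum of their groups. The part of stromal cells in the hedgehog result was not tested.

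In the TGF-beta and BMP pathway 20 of 25 listed members were higher in GE and 5 in LE, beside 56.6% and 40.5% of all listed genes. With DESeq2 14 of the 20 were called. Chrd, a secreted BMP antagonist, had 2054, 1920 and 2443 in GE and 19.7, 171 and 58.1 in LE (5.16, SE 0.68, adjusted p = 0.000452), Bmp7 differed by 4.67 and the activin subunit gene Inhbb by 4.84. Bmp5 (-5.10), the pseudoreceptor Bambi (-2.38) and Tgfbr1 (-1.44) were higher in LE. Notch pathway genes were listed for 17 of 30 members, 10 higher in GE and 7 in LE, near the shares of all listed genes (56.6% and 40.5%). Notch3 (1.34) and Notch4 (1.49), the targets Heyl (5.02) and Hey1 (2.18) and the ligand Dll1 (3.73) were higher in GE, and Notch2 (-1.66), the target Hey2 (-1.60), the ligand Dll4 (-1.28), the glycosyltransferase Rfng (-2.39) and the inhibitor Numb (-1.03) in LE. Notch3, Notch4 and Heyl are also expressed by pericytes or endothelium, whose sums are given above. The part of those cells was not tested in these pathways. Notch4 was not called after quantile normalization, nor Dll4 without GE replicate 1.

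Among 27 listed developmental transcription factors, 18 were higher in GE and 9 in LE, beside 56.6% and 40.5% of all listed genes. Beside Foxa2 and Sox9, the GE side held the Hox genes Hoxa10 (614, 866 and 454 against 15.5, 114 and 53.6; 3.73), Hoxa9, Hoxa11, Hoxd9, Hoxd10 and Hoxd11, and Hand2 and Foxf1, genes that the uterine stroma expresses. Hand2 lost its call without any one GE replicate. Hnf4a had 11.7, 27.5 and 12.1 in GE and no read in LE, at least 5.38-fold higher. The LE side held Sox17 (11319 ± 693 in GE, 25947 ± 1454 in LE; -1.20, SE 0.13), Pax2 (-1.45), Klf5 (-1.79), Sox7 (-1.90) and Elf5 (-3.06). Gata2 was called at -1.04 (adjusted p = 0.032), and the call was lost after quantile normalization and without each of 5 libraries in turn.

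Cell cycle genes were listed for 19 of 38 members, 16 higher in GE and 3 in LE, beside 56.6% and 40.5% of all listed genes. Mki67 had 229, 268 and 189 in GE and 72.5, 41 and 38 in LE (2.20, SE 0.34, adjusted p = 0.000861), and the mitotic genes Aurkb (3.40), Ccnb1 (1.77) and Cdc20 (2.28) followed. After quantile normalization 6 of the 16 were called. Cdkn1c, which encodes the cyclin-dependent kinase inhibitor p57, was higher in LE, at 954, 4027 and 2518 against 148, 191 and 118 (-3.83, SE 0.51, adjusted p = 0.000451), as was Tyms (-2.10). Inhibitor genes of this kind were called in both directions. Cdkn2b was also higher in LE (-3.15), whereas Cdkn1a (2.49) and Cdkn2c (1.80) were higher in GE. Lipid synthesis genes were listed for 12 of 30 members, 6 called each way. The fatty acid genes Fasn (-1.17), Acaca (-1.61), Scd2 (-1.36) and Elovl5 (-1.71) were higher in LE, and Fasn was not called after quantile normalization. Of the retinoid genes 8 of 20 were listed, 4 called each way. Dhrs9 (5.46) and the retinol dehydrogenase Rdh10 (1.28) were on the GE side and the retinol transporter Stra6 on the LE side (-3.43). With DESeq2 only 2 of the 4 GE calls were made.

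Epithelial structural genes differed by member. Of 16 listed keratins, 6 were higher in GE and 8 in LE. Krt23 had 6897, 3301 and 5456 in GE and 3.11, 28.7 and 10.1 in LE (8.82, SE 0.68, adjusted p = 6.47e-05), and Krt17 was higher in LE (-5.96). Of 11 claudins, which seal or open the tight junction to ions, Cldn10 (3.84), Cldn2 (3.67) and Cldn8 (2.49) were among 6 higher in GE, and Cldn3 (-1.48), Cldn7 (-2.38), Cldn1 (-3.33), Cldn15 (-3.10) and Cldn19 (-3.01) were the 5 higher in LE. Cldn15 lost its call without LE replicate 3 and without GE replicate 1 or 3. Cldn10 was uneven in LE, at 37.3, 1046 and 161. The 318 listed transcripts without a gene annotation held 87 called higher in GE and 210 called higher in LE.

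**Figure D5:**
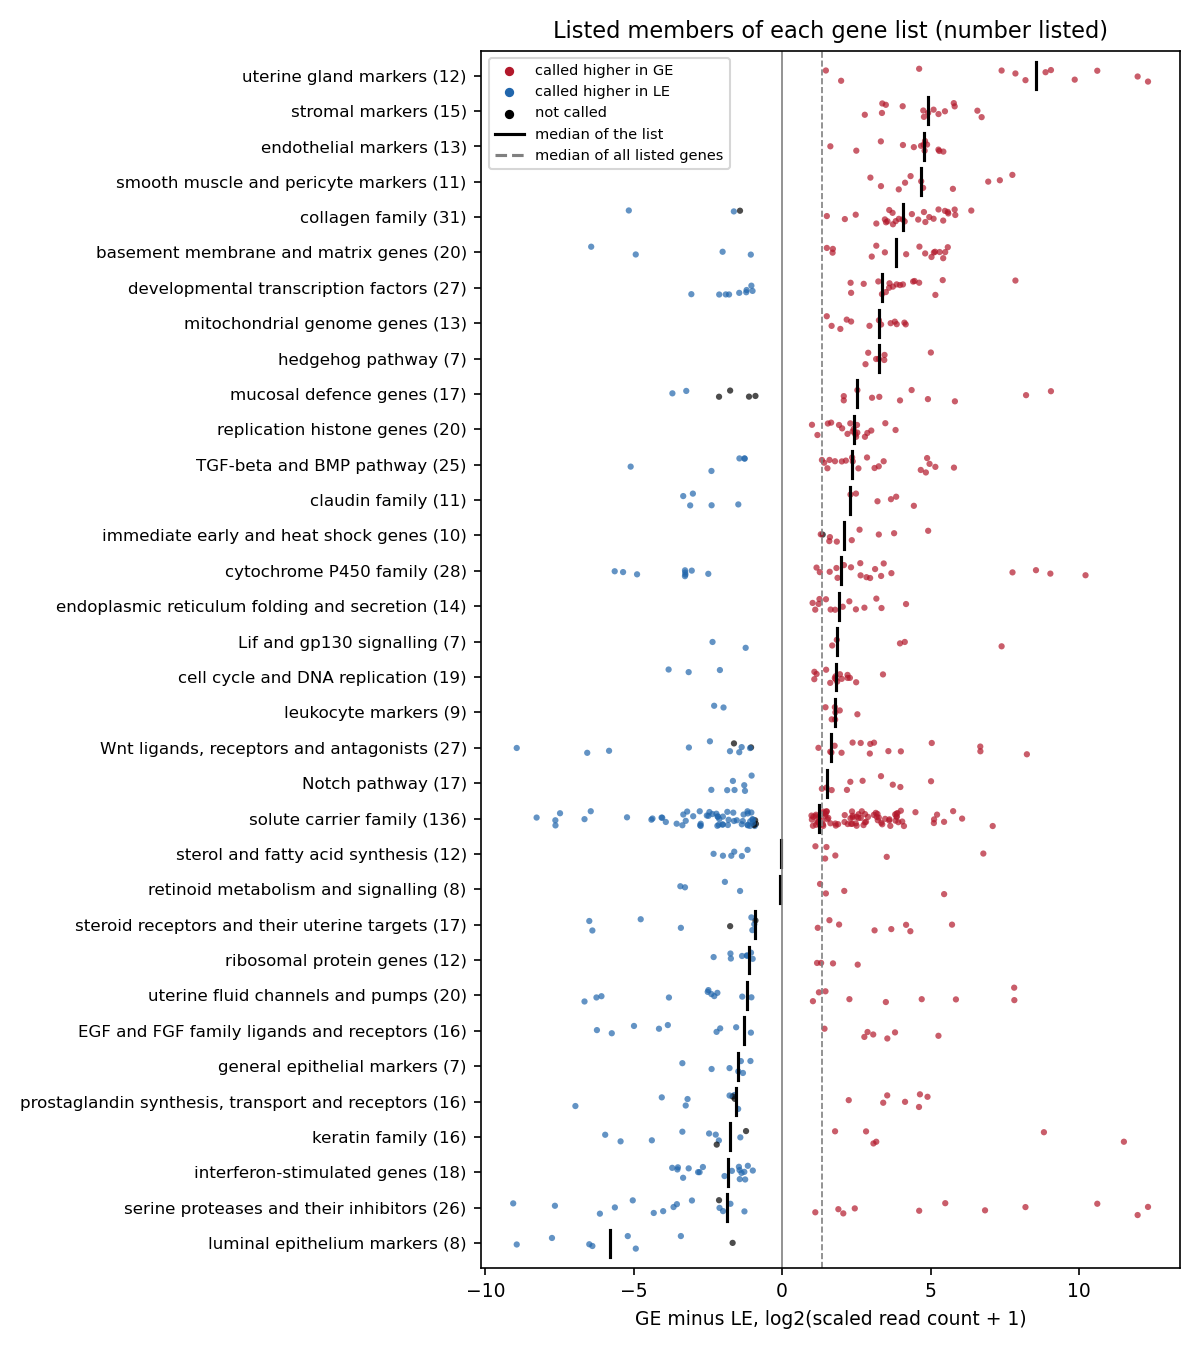
GE minus LE difference on the log2(scaled read count + 1) scale (x axis) of every listed member of each list with 5 or more listed members (y axis, ordered by median). Points are genes, coloured by call, and the dashed line is the median of all listed genes, 1.36. Gland markers (median 8.54) and luminal markers (median -5.80) lie at the ends.

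The E-OEX tables, from Notch1-overexpressing mice, also list genes selected for a difference between GE and LE, and 2933 genes are in both sets of tables. The tables were scaled separately, so only the GE minus LE difference within each was compared, with an interaction term in limma over all 12 libraries. It was called for 315 of these 2933 genes (10.7%), 144 with a more positive difference in wild type (4.91%) and 171 with a more negative one (5.83%). This split turned to 200 against 150 after quantile normalization and to 164 against 139 without wild-type LE replicate 2, and it was 151 against 298 without wild-type LE replicate 1. Left out one at a time, 6 libraries lowered the count by more than 1.5 times: 192 without wild-type LE replicate 3, 192, 209 and 179 without GE replicates 1, 2 and 3, and 202 without E-OEX-GE replicate 2 or 3. Of the 12 listed gland markers 8 were in both sets of tables. All 8 had a positive difference in E-OEX, and 4 were called in the interaction. Prss28, Prss29, Prom1 and Aldh1a1 were not in the E-OEX tables. Genes whose difference was lost in E-OEX would not be listed there, so this count of signs rests partly on the selection. Lif stood at 838 ± 374 (SD, n = 3) in E-OEX-GE and 234 ± 252 in E-OEX-LE, a difference of 2.46 against 7.39 in wild type (interaction 4.93, SE 1.04, adjusted p = 0.0097). Ttr differed by 3.31 in E-OEX (interaction 6.54, SE 0.97, adjusted p = 0.00152), Cxcl15 by 6.06 (interaction 2.99, SE 0.72, adjusted p = 0.0182) and Foxa2 by 4.50 (interaction 3.36, SE 1.0, adjusted p = 0.0477). The call was lost for Cxcl15 when any of 4 libraries was left out and for Foxa2 under 10 of 18 alternatives. Wfdc3 (adjusted p = 0.0515), Spink1 (0.0767), Sox9 (0.495) and Calca (0.515) were not called.

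Of the 8 listed luminal markers 6 were in both sets of tables. All 6 had a negative difference in E-OEX, under the same selection of listed genes. The interaction was called for 2 of them, among them Lpar3 (-2.08 in E-OEX; interaction -2.85, SE 0.61, adjusted p = 0.0109). Wnt7a differed by -8.30 in E-OEX, and its interaction of -0.65 (SE 1.24, adjusted p = 0.829) was not called. Of the pathways above, gp130 (Il6st) was at 8669 ± 1176 in E-OEX-GE and 3507 ± 959 in E-OEX-LE (1.33; interaction 2.80, SE 0.39, adjusted p = 0.00113), and Aqp5 differed by 1.84 (interaction 5.98, adjusted p = 0.000859). A few listed genes, named after their values were seen, had opposite directions in the 2 genotypes. Slco2a1 was at 878 ± 57.1 in E-OEX-GE and 2930 ± 806 in E-OEX-LE (-1.70; interaction 5.84, SE 0.54, adjusted p = 0.000101). Wnt4 differed by -2.40 in E-OEX (interaction 5.36, adjusted p = 0.00152) and Cdkn1c by 1.74 (interaction -5.56, adjusted p = 0.000859). Of the 18 listed interferon-stimulated genes 15 were in both sets of tables, and all 15 had a negative difference in E-OEX, again under that selection. In the interaction 2 were called, Ddx58 and Xaf1, both with a larger difference in wild type. Both calls were lost without any one wild-type GE replicate. Markers of other cells moved here too: all 15 stromal and 11 smooth muscle and pericyte markers were higher in GE in E-OEX, and 4 of the latter were called in the interaction, with Acta2 at 9.23 in E-OEX against 4.68 in wild type. Their part in the interaction was not tested.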

How the data were processed

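Per the labels' protocols, total RNA was isolated with an RNeasy kit and turned into sequencing libraries with NEBNext Ultra reagents. The build is GRCm38 (mm10), per the submitters' processing notes. Aligner, counting tool and scaling method are not given in the sources used here. The authors' deposited value of a gene is handled as a signal: a read count divided by 1 factor per library. Dividing by each library's smallest step gave numbers within 0.01 of whole reads for 100% of values in the 6 wild-type libraries, and those reads were used in count tests as alternatives.

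Genes averaging 1 or more over the libraries were tested on log2(value + 1) with limma 3.58.1 (R 4.3.3, moderated with an intensity trend, two-sided), Benjamini-Hochberg adjusted over all tested genes, at a threshold of 0.05. The interaction used 2933 genes of 12 libraries. The fits were tested on simulated data: for wild type, 43.0% of 100 genes changed by 1 log2 unit and 86.0% of 100 changed by 2 were called, beside 6 of 6208 unchanged genes. The simulation gave both groups the same dispersion, left most genes unchanged and selected no genes. In the data the LE libraries varied more and every gene was selected, so these rates do not carry over to them. A group with 3 reads or fewer in each library was taken to be at the detection floor, and folds against it are lower bounds on group means. Floors cover counting error only. No 2 libraries agreed within sampling noise.

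GENCODE M21 supplied symbols and positions for 6090 of 6096 Ensembl identifiers, and promoters came from RefSeq GRCm38.p6. Strand use in counting is not stated. Named genes were all listed gland and luminal markers, the 12 largest called non-overlapping differences in each direction at a mean of at least 100, and, of every other list, the 4 highest members and up to 3 running against the majority. A few members are not reported here. Further list members, given as examples, were chosen after their values were seen. The comparison, lists and rule were chosen with earlier results of these data known. Alternatives were other pseudocounts, filters, quantile normalization, a replicate block, edgeR 4.0.16, DESeq2 1.42.0 and leaving out each library.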

Additional observations from a re-analysis of the deposited data

Results flagged for a closer look

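The difference between GE and LE itself differed between wild type and E-OEX for 315 of 2933 genes in the limma interaction test, and among the gland and luminal markers and the genes with the largest wild-type differences it did so for, among others, the 13 reported here. Values are wild type minus E-OEX of the GE minus LE difference in log2(value + 1). These genes were chosen as markers or for large wild-type differences, and the same wild-type values enter the interaction. A smaller difference in E-OEX is therefore partly set by that choice, and their shared direction is no separate result.

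Of the genes higher in wild-type GE, Ttr differed by 6.54, Hp by 5.17, Gm32592 by 5.0, Lif by 4.93, Ryr3 by 4.44, Cyp3a59 by 4.20, Krt83 by 4.19, Foxa2 by 3.36 and Cxcl15 by 2.99, so each had a smaller gland excess in E-OEX. For Hp both E-OEX groups were above their wild-type counterparts in deposited value, at 7774 ± 3397 (SD, n = 3) in E-OEX-GE and 886 ± 1277 in E-OEX-LE, across tables that were scaled separately. Of the genes higher in wild-type LE, Cwh43 differed by -6.56, Grid2ip by -6.08, Serpina1e by -4.10 and Lpar3 by -2.85, so each had a smaller luminal excess in E-OEX. In E-OEX-LE the SD exceeded the mean for Cwh43 (239 ± 303), Grid2ip (29.2 ± 41.1) and Serpina1e (969 ± 1127).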

How the results depend on the processing

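The number of wild-type genes called stayed within 1.5 times of 6223 under every alternative run, from 5062 of 5230 genes at a mean value of at least 10 to 6277 with edgeR on the deposited scale, and from 5548 to 6108 when 1 library was left out. The split moved with the scaling. Of the calls 58.3% were higher in GE as reported, and DESeq2 called 5259 genes, 47.5% of them higher in GE (2498 against 2761). The median difference of 1.36 became 1.09 with edgeR after TMM scaling, 0.77 after quantile normalization and 0.69 with DESeq2, so small positive differences depend on the scaling. No direction was reversed for any of 644 genes followed, although 122 lost and 16 gained a call under at least 1 alternative. Every listed gene was selected for a log2 ratio of group means of at least 1.0 in size. This left little room for a reversal, so its absence is no separate result.

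With the replicate number as a block, 6187 wild-type genes and 314 interaction genes were called. Deviations from the group mean correlated at 0.0453 on average for libraries with the same number, and at -0.0226 for different numbers. Each group was centred on its own mean, which ties the second value to the first. With 3 libraries per group, these values cannot decide whether libraries with the same number came from the same animal. The interaction count ranged from 268 (pseudocount 0.1) to 400 (pseudocount 10) and from 179 to 449 when 1 library was left out. Read-count tests of the interaction were not run, since whole reads were not established for 1 E-OEX-GE library. The unknown full depth limits statements on genes near the floor, where 957 genes in LE and 482 in GE lie.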
